A study of Mus musculus with 12 samples.

Results

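The genes described here are 10 genes of the ATF4 stress response in mouse neural stem cells (NSCs): the transcription factors Atf4, Atf5 and Ddit3, the stress regulators Trib3, Chac1 and Sesn2, the amino acid synthesis enzymes Asns, Psat1 and Phgdh, and the cystine transporter Slc7a11. They were taken by name from the gene annotation of the deposited cytosine lists, where all 10 were found among 17202 annotated genes. They were chosen with their levels in the high-folate libraries already known, so the contrasts of high folate with low and mid folate are described for these genes and not tested. Their listed cytosines numbered between 1 and 579 per gene and library.

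The libraries are RNA bisulfite sequencing (RNA BS-seq) libraries of NSCs from the subventricular zone (SVZ) of adult C57BL/6 wild-type male mice aged 6 to 8 weeks. The cells were grown for 4 days in medium with EGF and bFGF and with low (LF), mid (MF) or high (HF) folic acid, at 1.5, 10 and 80 μM. Poly(A) RNA came either from total RNA (LF, MF, HF) or from polysome fractions of a sucrose gradient (pLF, pMF, pHF), with 2 replicates per group and 12 libraries in all. For the polysome samples only, the methods describe a brief incubation of the cells with cycloheximide before lysis, which freezes ribosomes on mRNA. Whether same-numbered replicates came from 1 culture is not given in the labels, so the p-values measure the spread between these samples.

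ATF4 is the main transcription factor of the integrated stress response. Kinases that sense amino acid shortage, unfolded protein, heme loss or viral RNA phosphorylate the initiation factor eIF2, which lowers general translation while the upstream open reading frames of Atf4 mRNA let ATF4 protein be made. ATF4 then raises genes for amino acid synthesis, amino acid uptake, tRNA charging and one-carbon metabolism, together with its own feedback regulators.

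ATF4 binds DNA with C/EBP family partners, and many of its target genes carry a composite site whose core reads TGATGNAA. Windows of 30 bases around each match to these letters, on either strand, in the members' promoters (250 bases before to 50 bases after the start, RefSeq, GRCm38.p6) are shown because this is the site by which ATF4 is known to reach its targets. Each window is written 5′ to 3′ on the strand of the gene, and capitals mark the match.
Asns, chr6:7693214-7693243, minus strand: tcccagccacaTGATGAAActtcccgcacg
Slc7a11, first match, chr3:50443661-50443690, minus strand: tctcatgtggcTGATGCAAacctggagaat
Slc7a11, second match, chr3:50443642-50443671, minus strand: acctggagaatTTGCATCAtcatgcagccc
Chac1, chr2:119351038-119351067, plus strand: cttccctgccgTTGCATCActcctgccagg
Trib3, chr2:152344028-152344057, minus strand: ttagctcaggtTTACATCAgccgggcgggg
The Chac1, Trib3 and second Slc7a11 matches read on the opposite strand of the gene. All 10 members were found in the promoter table, with 12 promoters in all, and 4 members held the 5 matches. Of all 32851 promoters, 1304 (3.97%) held the letters. A match is a description of the sequence.

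The level of a gene was read from coverage. For each gene and library, the median coverage was taken over its listed cytosines with a methylation level under 0.05, and this median was divided by the median over all genes of that library. A scaled level of 1 is therefore the median gene of that library, and it is a level per position, so genes of different length can be compared. A gene needed 5 such cytosines to have a level. The lists hold a cytosine only where at least 1 read was unconverted and the coverage was at least 10, so a thinly covered gene is seen at its best-covered or least-converted positions. At low coverage 1 unconverted read already gives a level of 0.05 or more, so such cytosines drop out. In Slc7a11, 10 of 59 listed cytosines were used in LF replicate 2 and 6 of 12 in LF replicate 1. In Asns, the cytosines used had 1.50% unconverted reads in LF replicate 1 at a median coverage of 54, against 0.0682% in HF-labelled replicate 1 at a median coverage of 2554. In HF-labelled replicate 1 the Asns level too rested on part of the gene, 22.0% of its transcript cytosines against 27.5% in LF replicate 1. For the members, ratios over positions shared by all libraries compared are therefore given beside the levels where such positions exist.

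Several libraries stand apart. The libraries that the labels call HF held 27353 and 21195 cytosines with a variant base, against 6134 to 7899 in LF and MF, 18155 in pHF replicate 2, 11495 in pLF replicate 2 and 4734 to 6124 in the other 4 polysome libraries. Unlike the other 10 libraries, they did not hold the read counts listed for HF in the study's table of methylated sites. They are therefore called HF-labelled throughout. Library pHF replicate 2 had a median coverage of 920 over its listed cytosines, against 335 to 605 in the other 11 libraries, and 38353 cytosines with a level over 0.9, against 1102 to 3465. It listed the fewest cytosines, 797260, of which 36247 had no gene. Library pLF replicate 1 held 990013 listed cytosines against 1657017 in pLF replicate 2. Of 9 neural stem cell markers, 8 had a level in every library, and Sox2 was not analysed here. Their summed level was 149 to 178 in LF and MF, 128 to 138 in the HF-labelled libraries and 131 to 190 in the polysome libraries. Most of that sum was Vim, and single markers differed: Fabp7 was at 12.8 and 13.2 in the HF-labelled libraries and at 24.9 to 47.1 in LF and MF, while Msi1 was at 4.61 and 2.53 there and at 0.451 to 0.904 in LF and MF. The summed level of the astrocyte markers was 3.56 and 4.27 in the HF-labelled libraries, 7.01 to 8.54 in LF and MF and 2.36 to 5.80 in the polysome libraries. Of these 5 markers, 3 had a level in each HF-labelled library and 2 in every other library. Slc1a3 and Aldh1l1 were lower in the HF-labelled libraries than in LF and MF. Gfap (0.237) and Aqp4 (0.295) had a level in 1 HF-labelled library each and in no other library. Of the 6 fibroblast or mural markers, 3 or 4 had a level, and their summed level was 33.4 and 35.6 in the HF-labelled libraries, against 15.5 to 19.5 in LF and MF and 11.9 to 17.5 in the polysome libraries. Dcn and Lum had no level in any library. Col1a2 was at 24.0 and 22.4 in the HF-labelled libraries and at 13.7 to 16.6 in LF and MF. Acta2, a smooth muscle actin, was at 9.93 and 9.09 in the HF-labelled libraries and at 1.13 to 1.86 in LF and MF. The part of these markers in the results was not tested. In bulk RNA, fewer cells of a type and less RNA per cell cannot be told apart.

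In total mRNA, 7 of the 8 members with a level in all 6 libraries were higher in both HF-labelled libraries than in each LF and MF library. The same was true of 23.2% of all 10673 genes. This is the contrast the genes were chosen on, and nothing is read from the count. The ratio of the mean of the HF-labelled libraries to the mean of LF and MF ran from 0.816 in Psat1 to 24.3 in Asns, with a median of 2.66. Trib3 and Chac1 had a level in the HF-labelled libraries and none in LF or MF.

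**Figure D1:**
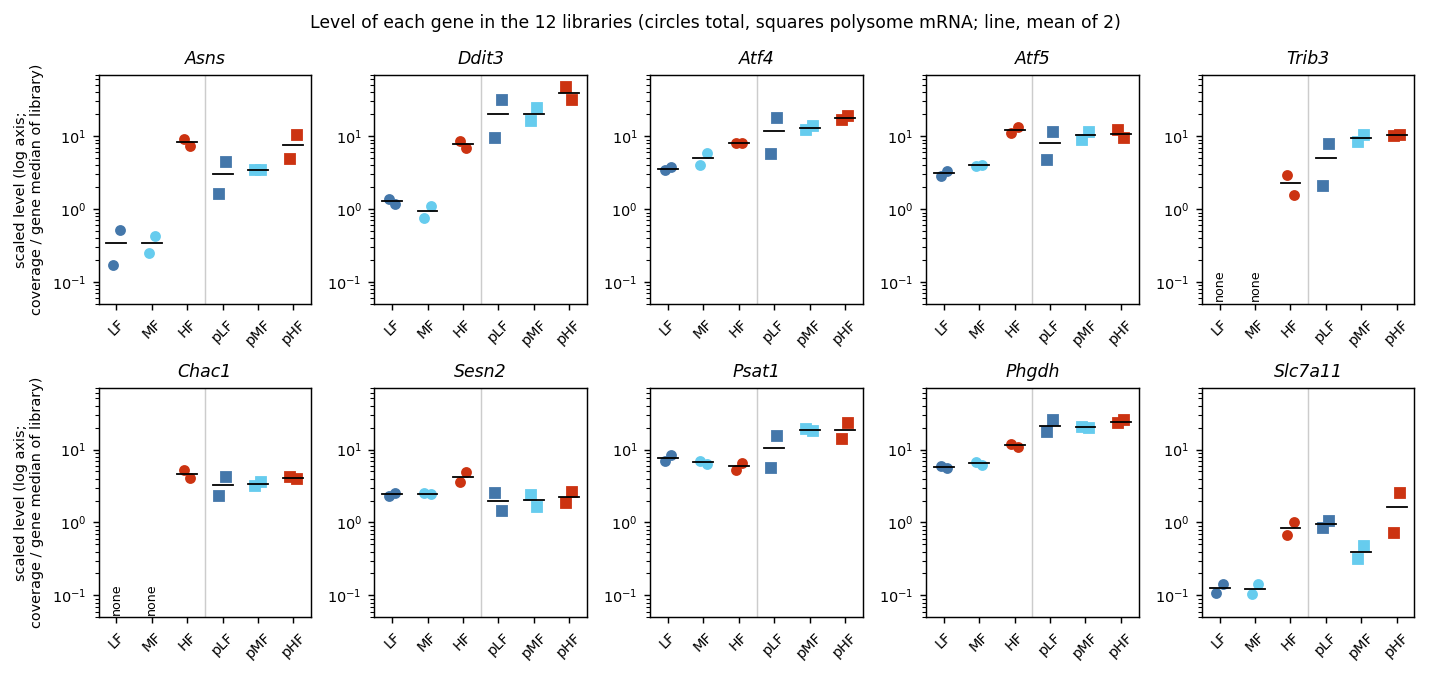
Scaled level of the 10 genes in each library on a log axis (coverage per position divided by the gene median of the library), with circles for total mRNA, squares for polysome mRNA and a line at the mean of the 2 replicates. Asns, Atf5, Ddit3, Phgdh and Slc7a11 are lowest in LF and MF, and Trib3 and Chac1 have no level there ("none"). In 8 of 10 genes pLF replicate 1 is the lowest polysome library.

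Among the transcription factors, Atf4 (Ensembl ENSMUSG00000042406, chr15:80255184-80257541, plus strand, GRCm38) had the smallest ratio of HF-labelled to LF and MF libraries, 1.88. Its scaled level was 3.39 and 3.81 for LF replicates 1 and 2, 4.02 and 5.92 for MF and 8.14 and 7.97 for the HF-labelled libraries. Its polysome levels were 5.67 and 17.8 for pLF, 12.03 and 13.9 for pMF and 16.7 and 18.7 for pHF. Both HF-labelled libraries lay above all LF and MF libraries, and the pHF range overlapped that of pLF. Atf5 (ENSMUSG00000038539, chr7:44812256-44816658, minus strand), a relative of ATF4 that is also translated under stress, was at 2.88 and 3.38 for LF replicates 1 and 2, 3.85 and 4.09 for MF and 10.9 and 13.5 for the HF-labelled libraries. In polysome mRNA, Atf5 stood at 4.75 and 11.4 for pLF, 8.93 and 11.6 for pMF and 12.03 and 9.53 for pHF. Its libraries labelled HF were as high as its polysome libraries. Ddit3 (ENSMUSG00000025408, chr10:127290774-127296288, plus strand), which encodes CHOP, a factor linked to cell death under prolonged stress, was at 1.36 and 1.19 for LF replicates 1 and 2, 0.767 and 1.12 for MF and 8.72 and 6.86 for the HF-labelled libraries. In polysome mRNA, Ddit3 stood at 9.34 and 31.1 for pLF, 16.0 and 24.5 for pMF and 46.9 and 31.7 for pHF. It was near the median gene in LF and MF and was the highest member in each of pLF replicate 2, pMF replicate 2 and both pHF libraries. The annotation holds 2 genes named Ddit3, and their cytosines were counted once.

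Among the stress regulators, Trib3 (ENSMUSG00000032715, chr2:152337422-152344032, minus strand), a pseudokinase that restrains ATF4 and CHOP, had 2 to 4 listed cytosines in each LF and MF library, with a coverage of at most 36. It had 86 and 168 in the HF-labelled libraries, at scaled levels of 2.93 and 1.57. Among polysome libraries, pLF had 2.08 and 7.92, pMF had 8.41 and 10.4, and pHF had 10.2 and 10.3. Chac1 (ENSMUSG00000027313, chr2:119351229-119354381, plus strand), which cleaves glutathione, had 1 to 3 listed cytosines in each LF and MF library, with a coverage of at most 24. Its level was 5.16 and 4.08 for the HF-labelled libraries. Among polysome libraries, pLF had 2.30 and 4.197, pMF had 3.17 and 3.56, and pHF had 4.16 and 3.90. A position without an unconverted read is not listed, so no ratio against LF or MF is given for these genes. In all 6 polysome libraries, low and mid folate included, both genes had at least 142 listed cytosines. Sesn2 (ENSMUSG00000028893, chr4:132492032-132510501, minus strand), a leucine sensor that restrains mTORC1, was at 2.31 and 2.55 for LF replicates 1 and 2, 2.51 and 2.44 for MF and 3.58 and 4.93 for the HF-labelled libraries. The polysome libraries had 2.51 and 1.44 for pLF, 2.42 and 1.63 for pMF and 1.85 and 2.60 for pHF. Its polysome libraries spread around and below the LF and MF levels, and both pMF libraries lay below both MF libraries. Some of its cytosines were also annotated to the overlapping gene Gm12981.

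Among the enzymes, Asns (ENSMUSG00000029752, chr6:7675169-7693254, minus strand), which makes asparagine from aspartate and glutamine, had the widest range in total mRNA. Its scaled level was 0.169 and 0.511 for LF replicates 1 and 2, 0.254 and 0.430 for MF and 9.15 and 7.40 for the HF-labelled libraries. The polysome libraries had 1.64 and 4.38 for pLF, 3.43 and 3.41 for pMF and 4.82 and 10.3 for pHF. The LF and MF levels rested on 19 to 121 cytosines, and none of them was listed in all 6 total libraries. Phgdh (ENSMUSG00000053398, chr3:98313170-98339990, minus strand), the first enzyme of serine synthesis, was at 5.97 and 5.59 for LF replicates 1 and 2, 6.84 and 6.21 for MF and 11.8 and 10.9 for the HF-labelled libraries. Among polysome libraries, Phgdh had 17.2 and 25.3 for pLF, 20.4 and 19.9 for pMF and 23.0 and 25.4 for pHF. Every polysome library lay above every total library. Psat1 (ENSMUSG00000024640, chr19:15904678-15947337, minus strand), the next enzyme of that pathway, was at 7.01 and 8.48 for LF replicates 1 and 2, 6.95 and 6.42 for MF and 5.25 and 6.52 for the HF-labelled libraries. Psat1 in polysome mRNA was at 5.55 and 15.6 for pLF, 19.4 and 17.7 for pMF and 14.1 and 23.1 for pHF. It was the 1 member whose mean was lower in the HF-labelled libraries than in LF and MF. That direction depended on the positions used: over the 240 positions listed in all 6 total libraries the median ratio was 1.28, with 140 positions above and 64 below all LF and MF libraries.

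The transporter Slc7a11 (ENSMUSG00000027737, chr3:49892526-50443614, minus strand), which imports cystine in exchange for glutamate, had the lowest coverage of the members with a level in every library. It was at 0.108 and 0.144 for LF replicates 1 and 2, 0.105 and 0.142 for MF and 0.670 and 1.02 for the HF-labelled libraries. Slc7a11 in polysome mRNA was at 0.829 and 1.06 for pLF, 0.314 and 0.472 for pMF and 0.715 and 2.504 for pHF. Both LF and both MF libraries lay below all other libraries. The LF and MF levels rested on 6 to 27 cytosines at a median coverage of 34.5 to 52.5.

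Where positions could be matched across the 6 total libraries, the ratio of the HF-labelled libraries to LF and MF had a median of 1.94 over 109 positions of Atf4, 5.07 over 12 of Atf5, 1.83 over 22 of Sesn2 and 1.64 over 169 of Phgdh. In Atf5, both HF-labelled libraries lay above all LF and MF libraries at 12 of 12 positions, in Atf4 at 81 of 109, in Phgdh at 133 of 169 and in Sesn2 at 18 of 22. They lay below all of them at 8 positions of Atf4, 25 of Phgdh and 4 of Sesn2. Asns, Ddit3, Trib3, Chac1 and Slc7a11 had no position that could be matched in this way. The genes were chosen on this contrast, and positions of the same gene share reads and are not replicates. The counts of positions were not set against those of all genes, and nothing is read from these counts.

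In polysome mRNA, all members had a level at each folate concentration, and for most of them the pHF range overlapped that of pLF and pMF. The ratio of the pHF mean to the mean of pLF and pMF ran from 1.11 in Sesn2 to 2.41 in Slc7a11, with a median of 1.35. In Slc7a11 the pHF replicates were at 0.715 and 2.504, against a mean of 0.668 in pLF and pMF. Its log2 difference ran from 0.25 to 2.06 over the fits that each left out 1 polysome library. Both pHF libraries lay above all 4 pLF and pMF libraries in 2 of 10 members, Asns and Ddit3, and in 6.4% of 8880 genes. Over all genes, limma called 0 of 8682 (0%) between pHF and the mean of pLF and pMF, with 892 at an unadjusted p under 0.05. This contrast too was used to choose the genes. At positions listed in all 6 polysome libraries, the median ratio was 1.91 over 161 positions of Ddit3, 1.40 over 193 of Asns, 1.35 over 235 of Atf4, 1.01 over 319 of Psat1 and 0.977 over 12 of Sesn2, the 1 member below 1. In 8 of 10 members the lowest polysome library was pLF replicate 1, which was the lowest for 27.0% of 8880 genes, and in 6 of 10 the highest was pHF replicate 2, which was the highest for 13.6%. Without pLF replicate 1, the log2 difference of Atf4 between pHF and the others was 0.22 in place of 0.63, and that of Asns was 0.67 to 1.77 over the 6 fits that each left out 1 polysome library.

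Low and mid folate were compared without the high-folate libraries, and no member passed the test. Between LF and MF, limma called 0 of 8865 genes (0%), with 199 at an unadjusted p under 0.05, and the 8 members tested had log2 differences from -0.44 in Atf4 (SE 0.54) to 0.46 in Ddit3 (SE 0.58). The adjusted p was 1.00 for each of them. Between pLF and pMF, 7 of 8865 genes (0.079%) were called and no member was among them. Slc7a11 had the largest difference of the members, with 0.829 and 1.06 in pLF against 0.314 and 0.472 in pMF, a log2 difference of 1.28 (SE 0.35, limma, adjusted p = 0.357). With mean in place of median coverage this difference turned to -0.37. The other 7 lay between -0.99 in Psat1 (SE 0.48) and 0.05 in Phgdh (SE 0.30).

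Polysome mRNA was compared with total mRNA at the same folate concentration, and 4 of the 8 members tested were higher in it. The genes were chosen on contrasts that use these same LF, MF, pLF and pMF libraries, and a gene picked as low in LF and MF is favoured to come out higher in polysome mRNA. The counts and p-values below therefore describe these libraries and are not independent evidence, and nothing is read from the members' count against the share of all genes. Asns, Ddit3, Phgdh and Slc7a11 passed the threshold in both comparisons, 4 of 8 each time, while 3.18% of 8865 genes were called higher in pLF than in LF and 3.4% higher in pMF than in MF. Ddit3 had the largest difference, 3.74 on the log2 scale between pLF and LF (SE 0.58, limma, adjusted p = 0.0161) and 4.42 between pMF and MF (SE 0.58, adjusted p = 0.0123). Asns differed by 3.19 (SE 0.66, limma, adjusted p = 0.0309) and 3.37 (SE 0.66, adjusted p = 0.0273). Slc7a11 differed by 2.91 (SE 0.35, limma, adjusted p = 0.0106) and 1.66 (SE 0.35, adjusted p = 0.0342), and Phgdh by 1.85 (SE 0.30, limma, adjusted p = 0.0175) and 1.63 (SE 0.30, adjusted p = 0.0246). For Slc7a11 these are levels of different positions, as 0 positions were listed in all 4 libraries of either comparison. The calls of Slc7a11 also depended on the setting. Its adjusted p (limma) reached 0.0759 and 0.165 under other settings that left out no library. In pLF, 44 of 47 and 127 of 141 of its cytosines lay in the 3′ part of the transcript, where the LF libraries had 0 and 5. In the middle part its level was 0.122 and 0.121 in LF and 0.290 in pLF replicate 2.

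Atf4 itself did not pass, at 1.48 (SE 0.54, limma, adjusted p = 0.120) and 1.40 (SE 0.54, adjusted p = 0.134), nor did Atf5, at 1.24 and 1.36 (SE 0.44, limma, adjusted p = 0.114 and 0.0929). Psat1 was at 0.27 and 1.47 (SE 0.48, limma, adjusted p = 0.742 and 0.0950) and Sesn2 at -0.35 and -0.32 (SE 0.37, limma, adjusted p = 0.555 and 0.597). The median difference over all genes was -0.20 and -0.22, so each member tested except Sesn2 lay above it in both comparisons. With scaling factors taken from the median ratio of all genes, which moves these medians to -0.03 and -0.02, the share of calls that were higher rose from 29.5% to 46.6% and from 30.4% to 50%. Over positions listed in every library, Sesn2 was called lower, at -1.14 and -1.04, and Psat1 higher, at 0.73 in each comparison, in fits that called 1217 and 1197 of 1808 genes. Atf4 and Atf5 also passed in both comparisons under some settings that left out no library. The adjusted p of Atf4 (limma) ran from 0.0222 to 0.211 and from 0.00944 to 0.155 over these settings. That of Atf5 ran from 8.34e-05 to 0.157 and from 1.42e-05 to 0.124. With at least 20 cytosines per gene and library, 5 members could be tested and 1 was called in each comparison, where 148 and 157 of 6311 genes were higher. Whether the polysome difference itself changed between low and mid folate was tested as an interaction (limma). In it 0 of 8865 genes passed, with 438 at an unadjusted p under 0.05. High folate was not part of this test. Slc7a11 had an interaction of 1.25 (SE 0.50, limma, adjusted p = 0.966).

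Leaving out either LF library left 0 called genes between pLF and LF, and leaving out either MF library left 0 between pMF and MF, while the difference of Asns stayed between 2.39 and 3.98 and that of Ddit3 between 2.87 and 4.72 over all 8 such fits. Without pMF replicate 1 or 2, 1 member was called between pMF and MF. The cycloheximide step, the gradient and any difference in library preparation cannot be told apart from the polysome fraction.

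**Figure D2:**
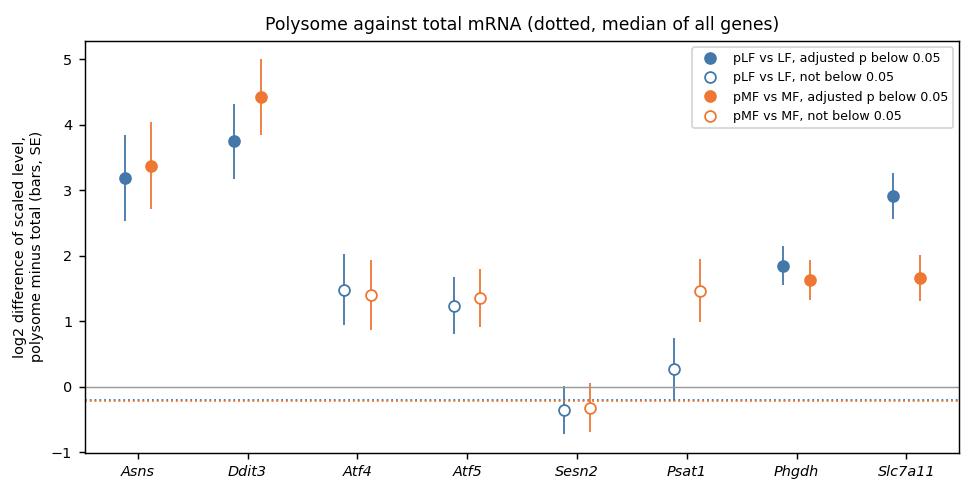
Log2 difference of the scaled level between polysome and total mRNA for the 8 genes tested, at low folate (blue) and mid folate (orange), with bars for the SE of the limma fit. Filled points passed an adjusted p of 0.05, and the dotted lines at -0.20 and -0.22 are the medians of all genes.

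At matched positions, Ddit3 and Asns had the highest ratios among the genes that could be matched, over few positions each. These are the same libraries, so the ratios are not independent evidence. Positions of 1 gene share reads and are not replicates, and their counts were not set against those of all genes. Between pMF and MF, the ratio of mean scaled coverage had a median of 31.1 over 12 positions of Ddit3, 11.8 over 4 of Asns, 3.18 over 257 of Phgdh, 2.91 over 43 of Atf5, 2.43 over 140 of Atf4, 2.11 over 345 of Psat1 and 0.617 over 45 of Sesn2. Both pMF libraries lay above both MF libraries at 4 of 4 positions of Asns, 12 of 12 of Ddit3, 245 of 257 of Phgdh, 41 of 43 of Atf5, 112 of 140 of Atf4, 263 of 345 of Psat1 and 10 of 45 of Sesn2. For pLF and LF the medians were 32.9 over 2 positions of Ddit3, 17.97 over 5 of Asns, 2.87 over 255 of Phgdh, 2.53 over 36 of Atf5, 1.89 over 202 of Atf4, 1.67 over 297 of Psat1 and 0.584 over 38 of Sesn2. Both pLF libraries lay above both LF libraries at 219 of 255 positions of Phgdh and 36 of 36 of Atf5, but at 73 of 202 of Atf4, 130 of 297 of Psat1 and 7 of 38 of Sesn2.

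Between the HF-labelled libraries and the polysome libraries, the members did not keep 1 order. Ddit3 was 5.05 times as high in pHF as in the HF-labelled libraries, Trib3 4.55 times, Psat1 3.16 times, Atf4 2.19 times, Phgdh 2.12 times and Slc7a11 1.91 times. Asns was at 0.913 of its level there, Atf5 at 0.883, Chac1 at 0.873 and Sesn2 at 0.523. These are ratios of means of 2 libraries and were not tested. The 2 groups overlapped in Asns, Atf5, Chac1 and Slc7a11. Slc7a11 was at 0.715 and 2.504 in pHF and at 0.670 and 1.02 in the HF-labelled libraries, so its direction rests on pHF replicate 2.

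Coverage was not even along the transcripts, and its shape differed between the library sets. Listed cytosines were placed on the longest annotated transcript (GENCODE, GRCm38), where all 30975 entries fell on a C, and each transcript was cut into 3 equal parts, with a level given from 3 cytosines on. In Asns, the 5′ part of the transcript was at scaled levels of 53.6 and 41.1 in the HF-labelled libraries and the 3′ part at 0.609 and 0.469, over 3 and 7 cytosines. In the pMF libraries the same parts were at 8.91 and 5.69, and at 2.36 and 2.36. Within the 5′ part of Asns, the HF-labelled libraries were at 39.5 to 55.9 in the first 2 twelfths of the transcript, which held 34 of 48 and 33 of 50 of the cytosines, and at 5.02 to 6.57 in the next 2. The polysome libraries were at 4.41 to 22.2 and at 0.714 to 5.92 in the same stretches. The 3′ part of the HF-labelled libraries lay below all 6 polysome libraries, which were at 0.968 to 13.7, and above LF and MF, which were at 0.111 to 0.276. In LF and MF the 5′ part was at 0.258 to 0.555.

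In Ddit3, the middle part was at 1.35 to 1.77 in LF and MF, 10.5 and 8.33 in the HF-labelled libraries and 16.7 to 83.6 in the polysome libraries. In Atf4, the middle part, which was at 2.88 to 3.41 in LF and MF, was at 3.57 and 3.31 in the HF-labelled libraries and at 5.49 to 22.3 in the polysome libraries. Its 5′ part was at 14.7 and 13.1 in the HF-labelled libraries against 3.17 to 4.19 in LF and MF. The 3′ part of Atf4 was at 17.97 and 18.4 in the HF-labelled libraries, 9.88 to 15.1 in LF and MF and 7.22 to 43.7 in the polysome libraries. Its twelfth before the last was at 169 and 138 in the HF-labelled libraries, 23.1 to 26.6 in LF and MF and 81.3 to 189.9 in the polysome libraries. Its last twelfth was at 172 and 142 in the HF-labelled libraries, 18.6 to 21.1 in LF and MF and 44.1 to 78.3 in the polysome libraries. In Psat1, the middle part was at 4.75 and 4.33 in the HF-labelled libraries, 6.04 to 7.31 in LF and MF and 14.4 to 31.7 in the polysome libraries. In each twelfth of its 5′ part, both HF-labelled libraries lay above all LF and MF libraries. In the last twelfth of that part they were at 14.1 and 14.2, against 7.55 to 10.9. The share of transcript cytosines that were listed did not always follow the level: in Asns it was 2.94% to 27.5% in LF and MF, 22.0% and 24.9% in the HF-labelled libraries and 48.0% to 92.0% in the polysome libraries.

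**Figure D3:**
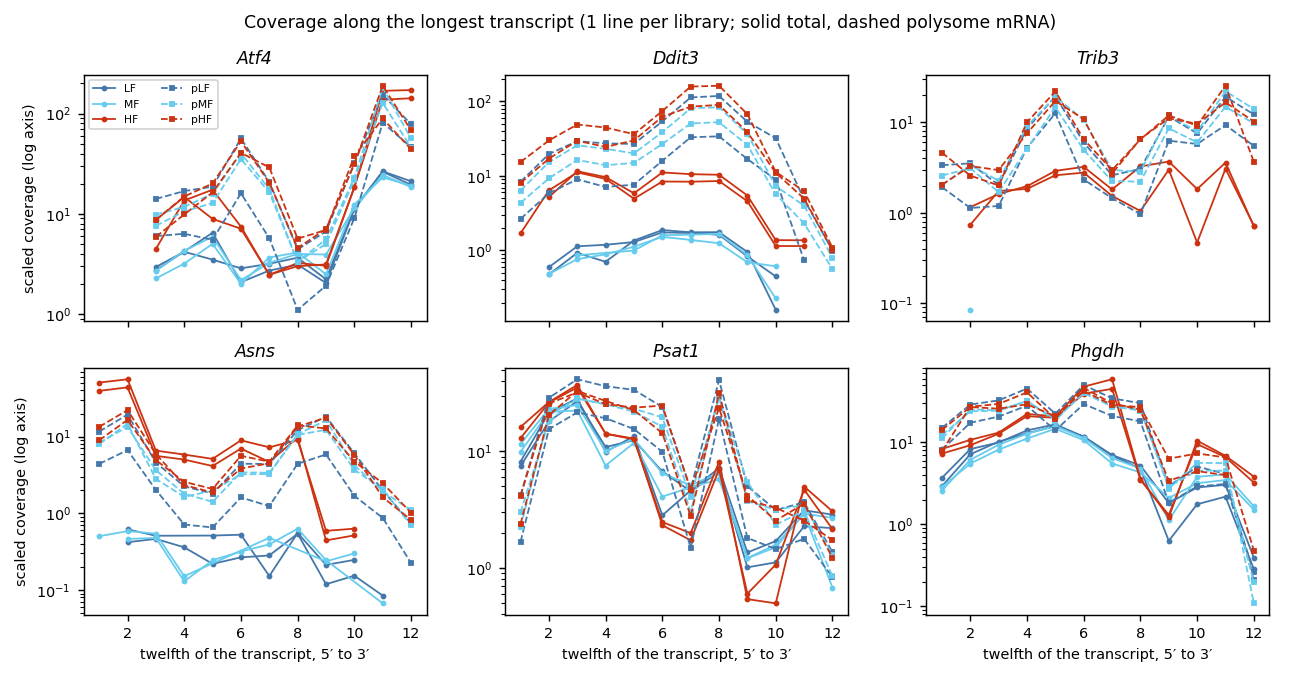
Median scaled coverage (log axis) in each twelfth of the longest transcript from 5′ to 3′, for 6 of the genes and with 1 line per library (solid for total, dashed for polysome mRNA). In Asns the HF-labelled libraries are at 39.5 to 55.9 in the first 2 twelfths, at 4.14 to 9.69 in the next 6 and at 0.444 to 0.631 in the last 2 where they have a value. In Atf4 they are at 169 and 138 in the twelfth before the last, within the range of the polysome libraries, 81.3 to 189.9. In the last twelfth they are at 172 and 142, above every polysome library, at 44.1 to 78.3.

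The wider pathway was read from 8 lists of 80 genes, none of them a member. Of 36 tested genes linked to ATF4 as regulators, metabolic enzymes, transporters or tRNA synthetases, 16 were higher in the HF-labelled libraries than in LF and MF and 0 were lower. Over all 8682 genes, 4.52% were higher and 4.58% lower. The median log2 difference of the 36 genes was 1.03, against -0.09 over all genes. In polysome against total mRNA, 15 of the 36 were higher in pLF than in LF, with a median of 1.04, and 18 were higher in pMF than in MF, with a median of 1.41. Over all 8865 genes, 3.18% and 3.4% were higher, with medians of -0.20 and -0.22. The lists were drawn up with earlier results of these data known, and these counts describe them. Leaving out 1 library at a time lowered the count for the HF-labelled libraries in every such fit. In the polysome comparisons some of these fits called no gene at all, in the lists or elsewhere.

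Among the regulators, 4 of 7 tested genes were higher in the HF-labelled libraries, where 4.52% of all genes were. Nupr1, a small stress-induced chromatin protein, differed by 2.32 on the log2 scale (SE 0.34, limma, adjusted p = 0.00789), the secreted stress hormone Gdf15 by 2.06 (SE 0.47, adjusted p = 0.0305) and the translation repressor Eif4ebp1 by 1.39 (SE 0.31, adjusted p = 0.0289). In pMF against MF, Gdf15 differed by 3.75 and Nupr1 by 3.06 (limma, adjusted p = 0.00950 and 0.0127), and in pLF against LF by 2.77 and 2.75 (adjusted p = 0.0108 and 0.0155). Gdf15 was uneven in the HF-labelled libraries, at 2.99 and 0.829.

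Of 12 metabolic enzymes, 7 were higher in the HF-labelled libraries, where 4.52% of all genes were. In each polysome comparison 7 were higher, where 3.18% (pLF against LF) and 3.4% (pMF against MF) of all genes were. Aldh1l2, a mitochondrial folate enzyme, had the largest difference in the HF-labelled libraries (log2 3.39, SE 0.30, limma, adjusted p = 0.00238). Its level was 0.167 to 0.192 in LF and MF and 1.92 and 1.85 in the HF-labelled libraries. The LF and MF levels lay far below the median gene, and no ratio over shared positions is given for list genes. Cth, which makes cysteine from cystathionine, differed by 2.19 (SE 0.46, limma, adjusted p = 0.0240), and the mitochondrial PEP carboxykinase Pck2 by 1.95 (SE 0.24, adjusted p = 0.00610). In polysome mRNA, Cth was higher by 2.41 in pLF than in LF and by 3.55 in pMF than in MF (limma, adjusted p = 0.0439 and 0.0192). The mitochondrial folate enzyme Mthfd2 was higher by 2.43 in pLF than in LF and by 2.35 in pMF than in MF (limma, adjusted p = 0.0242 and 0.0265), and Pck2 by 2.21 and 3.10 (adjusted p = 0.0106 and 0.00950).

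Of 6 tested amino acid transporters, 4 were higher in each of the 3 comparisons: Slc3a2, Slc7a5, Slc7a1 and Slc1a5. Over all genes, 4.52% were higher in the HF-labelled libraries, 3.18% in pLF than in LF and 3.4% in pMF than in MF. Slc7a1, a carrier of arginine and lysine, was at 0.180 to 0.421 in LF and MF and at 1.66 and 1.98 in the HF-labelled libraries (log2 2.58, SE 0.37, limma, adjusted p = 0.00752). Slc7a5, a carrier of leucine and other large neutral amino acids, differed by 2.35 (SE 0.27, limma, adjusted p = 0.00610), and the glutamine carrier Slc1a5 by 1.62 (SE 0.34, adjusted p = 0.0233). Slc3a2, the shared heavy chain of SLC7A5 and SLC7A11, was higher by 2.41 in pLF than in LF and by 2.40 in pMF than in MF (SE 0.37, limma, adjusted p = 0.0155 and 0.0164). Slc7a1 was higher there by 2.51 and 2.56 (SE 0.39, limma, adjusted p = 0.0164 and 0.0167). Of 11 genes for aminoacyl-tRNA synthetases and tRNA export, all had a positive difference in the HF-labelled libraries. Their median was 0.69 there, against -0.09 over all genes. The share of all genes with a positive difference is not given, and nothing is read from this count. In those libraries 1 passed, where 4.52% of all genes were higher: the tyrosyl-tRNA synthetase gene Yars (log2 1.70, SE 0.28, limma, adjusted p = 0.0118). Yars was also higher by 1.81 in pLF than in LF and by 1.68 in pMF than in MF (SE 0.34, limma, adjusted p = 0.0247 and 0.0302), and the glycyl-tRNA synthetase gene Gars by 1.48 in pMF (SE 0.35, adjusted p = 0.0425).

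The genes of eIF2 and its regulators were read from a list of their own. Of 10 tested genes for eIF2 kinases, eIF2, eIF2B and eIF2 phosphatase regulators, 0 passed in the HF-labelled libraries, where 4.52% of all genes were higher and 4.58% lower, with a median of -0.01. In polysome against total mRNA, 2 were higher and 0 lower at both concentrations, with medians of 0.96 and 0.47, where 3.18% and 3.4% of all genes were higher. Ppp1r15a encodes GADD34, a stress-induced regulatory subunit of the phosphatase that dephosphorylates eIF2. Ppp1r15a was at 0.386 to 0.756 in LF and MF, 1.24 and 1.60 in the HF-labelled libraries and 2.13 to 11.5 in the polysome libraries. It was higher by 3.14 in pLF than in LF and by 3.30 in pMF than in MF (SE 0.77, limma, adjusted p = 0.0465 and 0.0419). The eIF2B subunit gene Eif2b5 was higher by 1.47 and 1.21 (SE 0.29, limma, adjusted p = 0.0287 and 0.0464).

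Chaperone genes of the unfolded protein response that answer to ATF6 and XBP1 went the other way where they passed. The list did not move as 1. A positive difference, not called, was seen in 2 of 11 genes in the HF-labelled libraries. In pLF against LF it was seen in 4 of 12 and in pMF against MF in 5 of 12. Of 11 tested, 3 were lower in the HF-labelled libraries, where 4.58% of all genes were, and 0 were higher, with a median of -0.79. The co-chaperone Dnajc3 fell by 1.44 on the log2 scale (SE 0.35, limma, adjusted p = 0.0356), the calcium-binding chaperone Calr fell by 1.42 (SE 0.25, adjusted p = 0.0131) and Sdf2l1 fell by 1.14 (SE 0.29, adjusted p = 0.0379). In pLF against LF, 3 of 12 were lower where 7.6% of all genes were, and the GRP94 chaperone gene Hsp90b1 fell by 2.84 on the log2 scale (limma, adjusted p = 0.0164) while Dnajc3 fell by 1.94 (adjusted p = 0.0276). In pMF against MF, 2 of 12 were lower where 7.77% of all genes were: Dnajb9 fell by 2.06 (SE 0.47, limma, adjusted p = 0.0404) and Hspa5, the BiP chaperone, fell by 1.59 (SE 0.35, adjusted p = 0.0378).

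Of 8 antioxidant genes linked to NRF2, 1 was higher in the HF-labelled libraries, where 4.52% of all genes were, the quinone reductase gene Nqo1 (log2 2.39, SE 0.42, limma, adjusted p = 0.0129), and none passed in the polysome comparisons, with medians of 0.02 and 0.10. Of 7 genes linked to p53, 1 was lower in each comparison, where 4.58%, 7.6% and 7.77% of all genes were. With 1 gene called in each, the counts of both lists say little about the lists. Ccng1, cyclin G1, fell by 1.36 in the HF-labelled libraries, fell by 2.94 in pLF and fell by 2.04 in pMF (limma, adjusted p = 0.0437, 0.0154 and 0.0351). Between LF and MF and between pLF and pMF, no gene of any of the 8 lists passed.

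**Figure D4:**
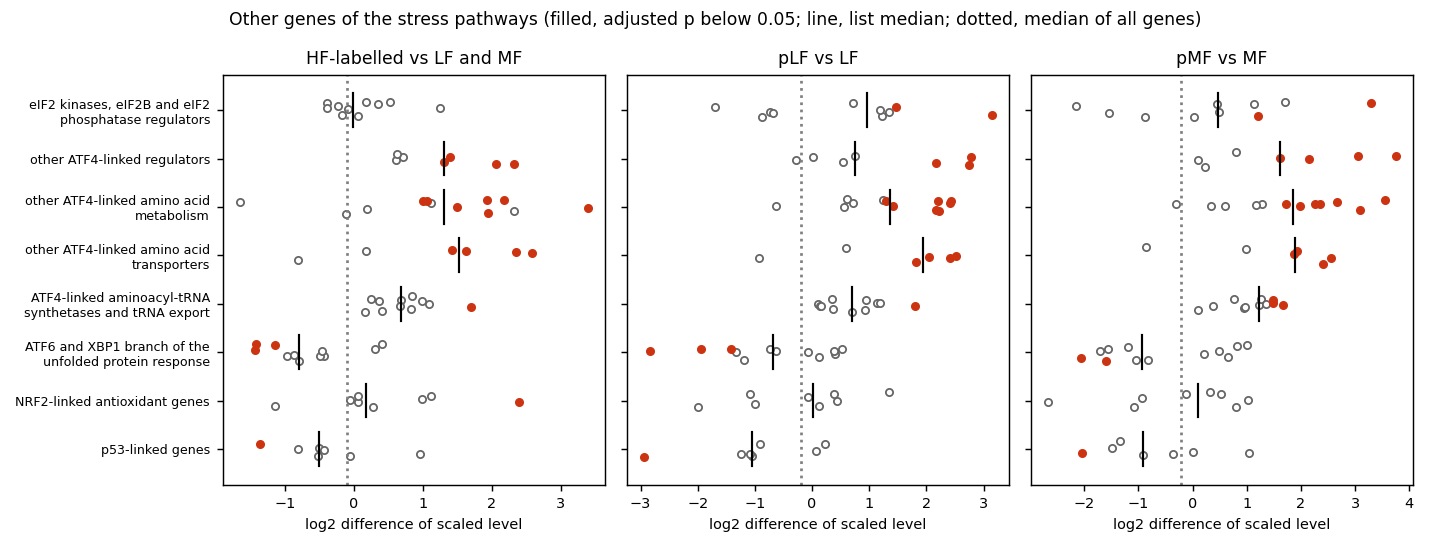
Log2 difference of the scaled level for each tested gene of the 8 lists (rows) in the HF-labelled libraries against LF and MF, in pLF against LF and in pMF against MF. Filled points passed an adjusted p of 0.05, the line is the list median and the dotted line the median of all genes. Points of the ATF4-linked lists lie mostly to the right of the dotted line, and the called points of the ATF6 and XBP1 list lie to its left.

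The genes most like the members were sought over the 12 libraries by their Pearson correlation with the mean log2 level of the 8 members that had a value in each. That mean was 0.57 to 0.92 in LF and MF, 2.502 and 2.61 in the HF-labelled libraries, and 2.04 to 3.47 in the polysome libraries. Among 8682 genes with a value in all libraries, the members included, the 5 other genes with the highest r were the synthetase genes Sars (0.98), Yars (0.98) and Aars (0.98), the enzyme gene Cth (0.97) and the autophagy receptor gene Sqstm1 (0.97). Sars was at 7.86 to 9.44 in LF and MF, 18.3 and 16.3 in the HF-labelled libraries and 15.03 to 28.2 in the polysome libraries. All genes share the same 12 libraries and their depths, and the correlation is a description.

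With cutoffs of 20 for coverage, 0.1 for methylation level and 6 for methylated reads, 8 cytosines of 6 members passed in at least 1 library. Of these, 2 passed in both replicates of a group, and both did so in the HF-labelled libraries. No member cytosine passed in both replicates of LF, MF, pLF or pMF, so no test of methylation was run. Counted once per library, 7 of 5043 listed member cytosines passed in the HF-labelled libraries (0.139%), where 0.288% and 0.308% of all listed cytosines did. In LF and MF 0 of 7309 passed, against 0.107% to 0.145% of all, and in the polysome libraries 3 of 19573 (0.0153%), against 0.131% to 0.701%. The lists precede the study's later filters on false calls. The 2 sites are shown with 10 bases on each side and the cytosine in capitals.
Asns, chr6:7689416, minus strand, coding part of exon 2: gcacagggggCcagatgcatt
Slc7a11, chr3:50370471, minus strand, 3′ UTR in exon 12: atgacaggggCataagtggcc

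The Asns cytosine had 608 methylated reads of 1444 in HF-labelled replicate 1 (42.1%, 95% Wilson interval 39.6 to 44.7) and 384 of 916 in replicate 2 (41.9%, 38.8 to 45.1). In the 6 polysome libraries it had between 2 and 9 methylated reads at a coverage of 1632 to 10198, at most 0.260% (0.137 to 0.494), and it was not listed in LF or MF. The intervals cover counting error only. In the HF-labelled libraries, coverage broke off at this base: it was 15317 and 11003 at the cytosine 7 bases upstream, 1444 and 916 at the site and 647 and 490 at the cytosine 1 base downstream. In pMF replicate 1 the same 3 cytosines had a coverage of 3827, 3459 and 3693. The neighbouring cytosines were at most 1.22% methylated in the HF-labelled libraries.

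The Slc7a11 cytosine rested on far fewer reads, with 7 of 29 methylated in HF-labelled replicate 1 (24.1%, 12.2 to 42.1) and 11 of 61 in replicate 2 (18.03%, 10.4 to 29.5). It was not listed in the other 10 libraries. The other 6 cytosines passed in 1 library each, 1 in Chac1 with 18 of 161 methylated reads in HF-labelled replicate 2 and 11 of 265 in replicate 1, and the rest at a coverage of 20 to 50 in that library.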

How the data were processed

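RNA bisulfite sequencing was done on 12 libraries in 6 groups of 2 replicates. The authors trimmed reads with fastp and ran the meRanTK tools against mm10 (meRanGh for alignment, meRanCall for calls from a coverage of 10, meRanAnnotate for genes), before their filters on false calls. The deposited lists hold read counts (coverage and methylated reads) per cytosine, and the deposited methylation level is the fraction of methylated reads. The submitters' processing notes name R 4.1.1.

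A gene's level was the median coverage over its cytosines with a level under 0.05 (at least 5 per library), divided by the gene median of the library. Since 1 read is counted at many cytosines, these are not gene counts, and log2 levels were tested with limma 3.58.1 (R 4.3.3), Benjamini-Hochberg adjustment and a threshold of 0.05. Comparisons of LF, MF, pLF and pMF were fitted on those 8 libraries, and contrasts with HF or pHF on all 12. The fit was tested on simulated data. Wilson intervals are at 95%.

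The members and gene lists were chosen with earlier results of these data known. Named genes were the 10 members, up to 3 called genes per list with the largest change in the HF-labelled contrast, up to 2 in each other comparison, and the 5 genes most like the members. Same-numbered replicates did not deviate together (r from -0.057 to 0.029), so no pairing was used. Alternatives changed the cytosine minimum, the summary, the positions, the scaling, the variance model, the libraries fitted and the replicate block. Summed coverage was 1186213013 to 2857966129 per library, at 797260 to 2071190 listed cytosines.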

Additional observations from a re-analysis of the deposited data

How the results depend on the processing

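A cytosine is listed only from a coverage of 10 and is used only at a level under 0.05, so thinly covered cytosines have no part in a gene's level. Between LF and MF and between pLF and pMF no member was called under any alternative, leaving out a library included, but several uncalled differences changed sign. Between LF and MF these were Atf5 (0.0621), Sesn2 (0.0409), Psat1 (-0.0381) and Phgdh (0.0777) over positions listed in every library, Sesn2 over exonic cytosines (0.0060), and Slc7a11 with mean coverage (-0.1389) and with all methylation levels (-0.8165). Leaving out 1 library gave -0.9637 to 0.6316 for Asns, -0.1012 to 0.0435 for Sesn2 and -0.1869 to 0.2482 for Slc7a11. Between pLF and pMF, mean coverage turned Sesn2 (0.1085) and Slc7a11 (-0.3733), and positions listed in every library turned Phgdh (-0.2103). Leaving out 1 library gave -1.0642 to 0.3578 for Asns, -1.0829 to 0.6547 for Ddit3, -1.1871 to 0.4675 for Atf4, -1.0970 to 0.1668 for Atf5, -0.4643 to 0.3376 for Sesn2 and -0.2327 to 0.3274 for Phgdh. Between pLF and LF the same step gave -0.7532 to 0.0487 for Sesn2 and -0.4740 to 1.0121 for Psat1.

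Of all genes, 790 were called in the HF-labelled contrast, against 405 with at least 20 cytosines (of 6032 tested), 2696 with mean coverage, 500 with all levels, 1883 with only the total libraries fitted, 854 of 1176 tested over positions listed in every library, and 128 to 273 with 1 library left out. Mean coverage gave 2661 between pLF and LF and 2825 between pMF and MF, where 956 and 990 were called, positions listed in every library gave 1217 and 1197 of 1808 tested, and leaving out 1 library gave 0 to 1584 and 0 to 379. For pHF, positions listed in every library gave 67 and leaving out 1 library 0 to 4. Between LF and MF, all levels gave 2. Between pLF and pMF, where 7 were called, the count was 4 with at least 20 cytosines, 1 with at least 1 cytosine, 1 with mean coverage, 0 over positions listed in every library, 3 with all levels, 4 with median-ratio scaling, 1 with a variance trend and 0 to 85 with 1 library left out. The replicate block gave 654 in the HF-labelled contrast, 713 between pLF and LF, 689 between pMF and MF and 0 between pLF and pMF, and changed no member's call.

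Members called higher between pLF and LF numbered 1 with at least 20 cytosines, 6 with mean coverage and 0 to 6 with 1 library left out, where 148 of 6311, 841 of 8865 and 0 to 652 of all genes were higher. Between pMF and MF they numbered 1 with at least 20 cytosines, 6 with mean coverage and 0 to 1 with 1 library left out, where 157 of 6311, 879 of 8865 and 0 to 65 of all genes were higher. Of 551 alternatives for the list genes named, 139 lost the call, 118 of them by leaving out a library, and 0 changed direction. The planned tests of member cytosines were not run, since none passed the cutoffs in both replicates of LF, MF, pLF or pMF. The cause of these changes was not tested.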
